A study of Mus musculus with 6 samples.

Results

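The genes described here serve protein folding in the endoplasmic reticulum (ER) and the unfolded protein response, the programme that cells switch on when proteins misfold in that compartment. The set holds 31 named genes, from the chaperone gene Hspa5 to the translocon subunit gene Sec61b. Each gene was read by 1 probe set, the one with the highest mean among those that name only that gene, provided that mean reached a log2 value of 5 over the arrays. By this rule 29 of the 31 genes could be tested, out of 12098 genes that met the same level. Chac1 and Trib3 lay under it, with means of 4.59 and 4.75, while the dimmest gene that met it was Sesn2 at 6.30.

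Samples were 6 arrays of tissue labelled as retinal pigment epithelium of mouse embryos at embryonic day 13.5. The genotype labelled albino gave 3 arrays and the genotype labelled control (pigmented) gave 3, each from the pooled tissue of 3 to 4 littermates and each a separate biological replicate. The labels list no treatment for either group. The labels name no strain and no mutated gene, so the albino pools stand for a coat and eye colour and not for a known allele. Per the labels' protocols, dissection took away the cornea, the lens, the neural retina and whatever lay outside the eye. Pools are bulk tissue, in which fewer cells of a type and less RNA per cell cannot be told apart.

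The unfolded protein response is started by sensors in the ER membrane. ATF6 moves to the Golgi, is cut there and enters the nucleus, where it raises chaperone genes. IRE1, encoded by Ern1, splices the messenger RNA of XBP1, a factor for folding and disposal genes. PERK, encoded by Eif2ak3, slows translation and thereby favours ATF4, which raises amino acid and stress genes such as Ddit3. Albinism in mice often comes from mutations of tyrosinase, and mutant tyrosinase can be held back in the ER by its chaperones, which is why the 3 branches are compared between the genotypes. The 31 genes were set into 4 groups from textbook knowledge, namely 3 sensors, 13 genes under ATF6, 8 genes of the IRE1 and XBP1 branch and 7 genes of the PERK and ATF4 branch. Many of these genes answer to more than 1 branch, and each was counted once.

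Promoter sequences show which of the genes carry the elements through which these branches act. The ER stress response element (ERSE) is read by ATF6 and XBP1 together with a CCAAT-binding factor, and its letters are CCAAT, a spacer of 9 free bases and CCACG. Of 27 members with a promoter in the RefSeq table (build GRCm38.p6), 8 held it on either strand within the 250 bases before the transcription start, against 0.113% of all 32851 listed promoters searched over the same length. These were 6 genes of the ATF6 group and 2 of the IRE1 group, and none of the 7 PERK genes. The elements are shown with 18 bases on either side, on the strand of the gene, and the fixed letters of the element are in capitals. Where the element lies on the opposite strand it reads CGTGG, a spacer and ATTGG.
Hspa5, chr2:34772007-34772061, plus strand: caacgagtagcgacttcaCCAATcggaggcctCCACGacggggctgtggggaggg
Pdia6, chr12:17266473-17266527, plus strand: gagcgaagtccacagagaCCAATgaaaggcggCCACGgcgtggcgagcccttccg
Canx, chr11:50325782-50325836, minus strand: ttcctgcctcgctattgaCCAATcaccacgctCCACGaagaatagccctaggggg
Calr, chr8:84847057-84847111, minus strand: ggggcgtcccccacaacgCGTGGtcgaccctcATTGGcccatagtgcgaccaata
Creld2, chr15:88819502-88819556, plus strand: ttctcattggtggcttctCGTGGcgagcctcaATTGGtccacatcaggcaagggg
Hsp90b1, chr10:86705620-86705674, minus strand: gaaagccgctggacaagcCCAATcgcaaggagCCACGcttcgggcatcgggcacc
Hsp90b1, chr10:86705515-86705569, minus strand: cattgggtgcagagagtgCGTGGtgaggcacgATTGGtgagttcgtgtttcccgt
Dnajc3, chr14:118937809-118937863, plus strand: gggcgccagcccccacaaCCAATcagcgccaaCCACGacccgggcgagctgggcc
Syvn1, chr19:6046514-6046568, plus strand: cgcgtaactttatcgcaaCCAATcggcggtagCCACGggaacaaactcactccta

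The related element ERSE-II (ATTGG, 1 free base and CCACG) was found in 1 member, Herpud1, against 0.0304% of all promoters. The amino acid response element (TGATGNAA), through which ATF4 acts, was found in 3 members, Asns, Chac1 and Herpud1, against 3.45% of all promoters. Both are shown in the same way, with the amino acid response element of Herpud1 and Chac1 on the opposite strand and that of Asns cut at the transcription start. The core of the unfolded protein response element (TGACGTGG), known as a site for XBP1 and ATF6, was in the window of 0 of the 27 members and of 0.563% of all promoters. No match overlapped another. A match is a run of letters and was not tested as a binding site.
Herpud1 ERSE-II, chr8:94386359-94386405, plus strand: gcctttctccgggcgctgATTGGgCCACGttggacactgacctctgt
Herpud1 amino acid response element, chr8:94386299-94386342, plus strand: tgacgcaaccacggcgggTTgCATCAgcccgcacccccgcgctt
Asns amino acid response element, chr6:7693210-7693250, minus strand: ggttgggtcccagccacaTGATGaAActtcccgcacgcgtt
Chac1 amino acid response element, chr2:119351031-119351074, plus strand: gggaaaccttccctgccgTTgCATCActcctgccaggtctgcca

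The 6 arrays did not form a plain pair of genotypes. The first principal component of the 23591 tested probe sets held 68.9% of the variance and set the replicate 1 array of each genotype apart from the other 4. Markers of RPE had array means of 10.23 to 10.65 log2 units, with the late visual cycle gene Rpe65 under the level filter at 3.23. By group mean 9 of 9 tested RPE markers were lower in albino pools (median -0.097, Ttr -0.56). Between the replicate 3 arrays, though, 5 were higher and 4 lower, with a median of 0.02. Neural retina markers were lower in 5 of 5, by a median of -0.50, and in each of the 3 pairs of arrays with equal replicate number. Pairs here and below follow the replicate numbers, and the data set apart replicate 1 rather than each number. Skeletal muscle markers, all 12 higher in albino pools, had means of 9.02 to 9.73 on the albino and 7.47 to 8.45 on the pigmented arrays, and lens markers lay at 5.13 on albino replicate 3 against 7.33 to 7.66 on the other arrays. Y-linked probe sets had means of 7.06 to 7.99 in the albino group and of 7.39, 2.32 and 5.98 on pigmented replicates 1, 2 and 3. The part of RPE, neural retina, muscle, lens and sex in the values below was not tested, apart from a fit with the Y-linked mean as a covariate.

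The ER stress genes did not separate the albino from the pigmented pools. In limma's fit 0 of the 29 tested genes passed an adjusted p of 0.05 (smallest adjusted p = 0.999), as did 0.0% of all 23591 probe sets. At an unadjusted p under 0.05 limma gave 0 of the 29, against 4.68% of all probe sets. In no gene, read by its chosen probe set, did the 3 albino arrays all lie above the 3 pigmented arrays, a pattern held by 7.39% of all probe sets, or all below them, as 3.44% did. All 29 differences lay between -0.087 for Dnajc3 and 0.19 for Dnajb11.

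More of the genes read slightly higher than lower in albino pools, 21 against 8, with a median difference of 0.063. This is close to the background, where 63.5% of all probe sets were higher and the median was 0.047. The split turned with the scaling, to 12 higher, 16 lower and 1 equal after centring each array on its median, and became 17 and 12 after cyclic loess. Among all probe sets at an unadjusted p under 0.05 it moved likewise, from 759 of 1104 higher to 486 of 1543 and 745 of 1462. It also hung on single arrays. Without albino replicate 1 only 4 of the 29 were higher, and without pigmented replicate 1 the count was 28. Without pigmented replicate 2 it was 11, and with the Y-linked covariate 3.

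**Figure D1:**
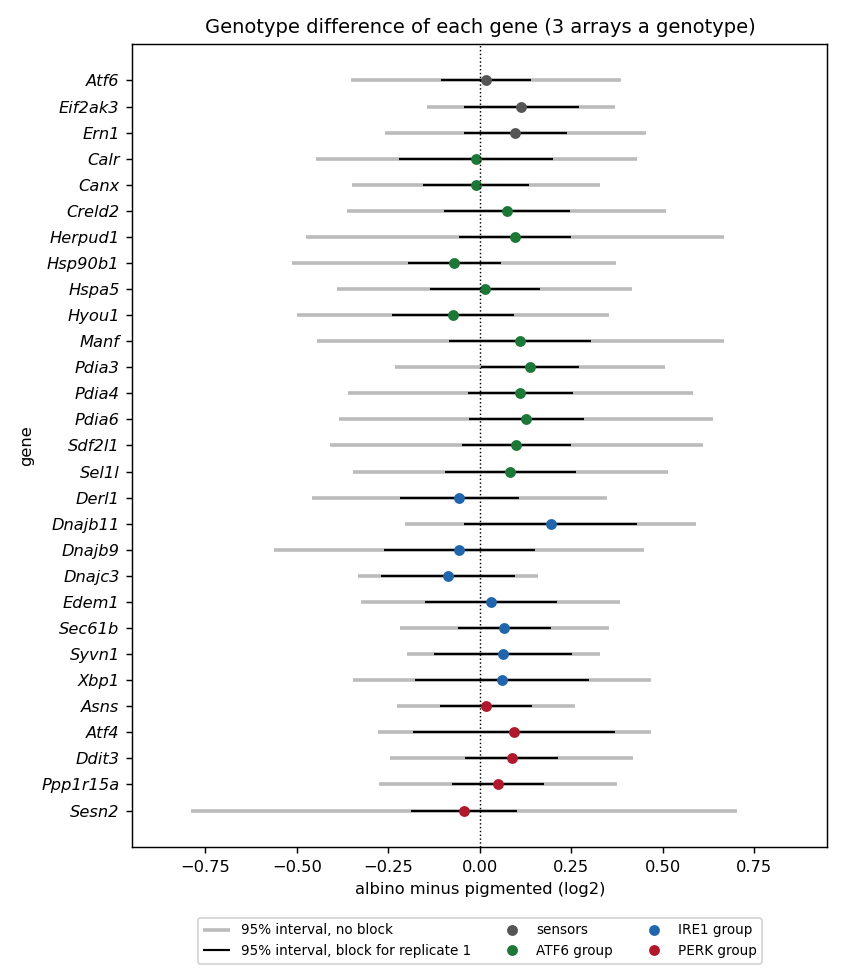
Difference of each gene on the log2 scale, albino minus pigmented, coloured by group, with its 95% confidence interval from the fit without a block (grey) and from the fit that also holds a term for replicate 1 (black). All 29 grey intervals cross 0, and of the black ones only that of Pdia3 does not.

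Among the sensors, Atf6 read 7.10, 6.79 and 6.75 on albino replicates 1, 2 and 3 and 7.12, 6.74 and 6.73 in the pigmented group. The genotypes ran in step, with replicate 1 high in both and the other 4 arrays close together. The difference was 0.017 (SE 0.15, limma adjusted p = 0.999), and it was negative after median centring (-0.057) and after cyclic loess (-0.047). Ern1, the gene of IRE1, read 7.35, 6.97 and 7.00 in the albino group, against 7.21, 6.97 and 6.85 in the pigmented group, so that the ranges overlapped and the replicate 2 arrays were equal. Its difference was 0.097 (SE 0.15), and the average of its probe sets gave -0.035. Eif2ak3, the gene of PERK, read 8.44, 8.21 and 8.16 against 8.20, 8.09 and 8.18, a difference of 0.11 (SE 0.11), with albino replicate 1 the highest array. None of the sensors passed.

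The ATF6 group is made of the chaperones, the disulfide isomerases and their helpers. Hspa5, which encodes the master chaperone BiP, read 13.10, 12.73 and 12.72 in the albino group, against 13.11, 12.62 and 12.78 in the pigmented group. Means were 12.85 ± 0.22 and 12.84 ± 0.25 (SD, n = 3 each), a difference of 0.013 with a 95% interval of -0.39 to 0.42, or 0.76-fold to 1.34-fold. Arrays of the same number lay within 0.11 of each other, while replicate 1 stood above replicates 2 and 3 in both genotypes. The other Hspa5 probe sets gave -0.017 and -0.38, and median centring gave -0.060.

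Pdia3, which encodes the disulfide isomerase that works with calnexin and calreticulin on glycoproteins such as tyrosinase, had the largest difference of the group. It read 11.88, 11.57 and 11.51 in the albino group, against 11.76, 11.35 and 11.44 in the pigmented group. The albino array was higher in 3 of 3 numbered pairs, by 0.12, 0.22 and 0.07, but the ranges overlapped. The difference was 0.14 (SE 0.15, limma adjusted p = 0.999). In a fit with a term for replicate 1, Pdia3 was the only member whose chosen probe set had an unadjusted p under 0.05, against 21.0% of all probe sets, and its adjusted p there was 0.232. Pdia6, another disulfide isomerase gene, read 11.76, 11.29 and 11.20 against 11.65, 11.03 and 11.19, a difference of 0.13 (SE 0.21).

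Herpud1, whose product helps the disposal of misfolded ER proteins, read 9.06, 8.47 and 8.38 in the albino group, against 8.92, 8.28 and 8.42 in the pigmented group. Replicate 1 was the highest array of each genotype, and the ranges overlapped. The difference was 0.097 (SE 0.24), and its other probe set gave -0.0033. The calnexin gene Canx and the calreticulin gene Calr, which encode the lectin chaperones of glycoproteins, both differed by -0.010 (SE 0.14 and 0.18). Hsp90b1, the gene of GRP94, differed by -0.070 and Hyou1, a large chaperone and nucleotide exchange factor, by -0.073. All other probe sets of Canx, Calr, Hsp90b1 and Hyou1 above the level filter were higher in albino pools, by 0.0067 (Calr) to 0.10 (Hsp90b1). The remaining members lay on the higher side, with Manf and Pdia4 at 0.11, Sdf2l1 at 0.10, Sel1l at 0.083 and Creld2 at 0.073. The group had 9 of 13 members higher and a median of 0.083, and 11 were higher between the replicate 1 arrays, 11 between the replicate 2 arrays and 5 between the replicate 3 arrays.

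In the IRE1 branch, Xbp1 read 11.61, 11.25 and 11.39 in the albino group, against 11.62, 11.06 and 11.39 in the pigmented group. The replicate 3 arrays were equal and the ranges almost the same. Its difference was 0.060 (SE 0.17) and -0.013 after median centring, and its other probe sets gave 0.19, 0.040 and -0.093. The values do not tell the spliced from the unspliced transcript, because no probe set was known here to read only 1 form. Dnajb9, a cochaperone of BiP that also restrains IRE1, read 9.35, 8.85 and 9.05 against 9.54, 9.02 and 8.86, a difference of -0.057 (SE 0.21). It was lower in albino in replicates 1 and 2 and higher in replicate 3.

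Dnajb11, another cochaperone gene of BiP, had the largest difference of all members at 0.19 (SE 0.17, limma adjusted p = 0.999). It read 9.39, 8.98 and 9.06 in the albino group, against 9.14, 8.68 and 9.03 in the pigmented group. It was higher in 3 of 3 numbered pairs, but albino replicate 2 lay under pigmented replicate 3, and the ranges overlapped. With the replicate number as a block it was the only member whose chosen probe set had an unadjusted p under 0.05, against 18.0% of all probe sets, and its adjusted p there was 0.278. Dnajc3, which encodes a cochaperone also known as an inhibitor of PERK, read 9.30, 9.29 and 9.24 against 9.46, 9.20 and 9.43, a difference of -0.087 (SE 0.10). Its 4 other probe sets pointed the other way, at 0.13 to 0.16. Syvn1, which encodes the ubiquitin ligase HRD1 of ER-associated degradation, read 8.64, 8.32 and 8.52 against 8.46, 8.46 and 8.37, a difference of 0.063 (SE 0.11) that was -0.010 after median centring. Sec61b, Edem1 and Derl1, which serve translocation and disposal, differed by 0.067, 0.030 and -0.057. The branch had 5 of 8 members higher and a median of 0.045, which became -0.028 after median centring and -0.0042 after cyclic loess.

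In the PERK branch, Atf4 read 9.77, 9.49 and 9.84 in the albino group, against 9.86, 9.56 and 9.40 in the pigmented group. Albino replicate 3 stood high and pigmented replicate 3 low, so that this pair alone differed by 0.44 while the other pairs differed by -0.09 and -0.07. The difference was 0.093 (SE 0.16), and the second Atf4 probe set, at a lower level, gave -0.34 (SE 0.17, limma adjusted p = 0.999). Ddit3, the gene of the stress factor CHOP, read 7.58, 7.22 and 7.28 against 7.46, 7.19 and 7.17. All 3 pairs were higher in albino, by 0.12, 0.03 and 0.11, and the difference was 0.087 (SE 0.14). Ppp1r15a, which encodes the GADD34 subunit that restores translation, differed by 0.050 and Asns, the asparagine synthetase gene, by 0.017.

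Sesn2, a stress-induced inhibitor of growth signalling, read 6.82, 5.97 and 6.05 in the albino group, against 6.87, 6.11 and 5.99 in the pigmented group. Genotypes were almost equal, at a difference of -0.043, while replicate 1 stood far above the other arrays. The branch had 4 of 5 tested members higher and a median of 0.050, which was -0.023 after median centring and -0.014 after cyclic loess. The glutathione-degrading enzyme gene Chac1, a strong ATF4 target, was dim on all arrays, at 4.56, 4.59 and 4.46 against 4.63, 4.56 and 4.74. Trib3, which encodes a pseudokinase induced by CHOP, read 5.68, 4.36 and 4.41 against 5.21, 4.30 and 4.54, above a value of 5 only on the replicate 1 arrays.

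Set side by side, with no test of a difference between groups, medians were 0.097 for the sensors, 0.083 for the ATF6 group, 0.045 for the IRE1 group and 0.050 for the PERK group, against 0.047 for all probe sets. Taken pair by pair, from replicate 1 to replicate 3, the median difference was 0.11, 0.10 and -0.04 in the ATF6 group, 0.02, 0.055 and 0.02 in the IRE1 group and -0.04, 0.00 and 0.07 in the PERK group. The sensors had 0.14, 0.05 and 0.02. Medians of the sensors and of the IRE1 group were thus positive in each numbered pair, while those of the ATF6 and PERK groups were not. The median over all probe sets was positive in each pair too, at 0.05, 0.04 and 0.03. Single genes were mixed, and the IRE1 group had 4 higher and 4 lower between the replicate 1 arrays. Signs of single genes carried little weight, since of 30 other probe sets of these genes above the level filter only 9 had the sign of the chosen probe set. In 1 of them, of Derl1, the genotypes did not overlap, at 7.89, 7.36 and 7.36 in albino over 7.34, 7.17 and 7.24 in pigmented pools. That pattern, with albino higher, was held by 7.39% of all probe sets. At an unadjusted p under 0.05 in limma there were 0 of the 30 without a block, 4 with the replicate block and 5 with the term for replicate 1. The shares of all probe sets in these fits were 4.68%, 18.0% and 21.0%. Those 5 were of Hspa5 (-0.38), Edem1 (0.22), Derl1 (0.29), Sel1l (0.22) and Xbp1 (0.19), and their smallest limma adjusted p there was 0.132.

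How closely the differences were estimated depends on how replicate 1 is treated. Without a block the 29 intervals reached from -0.79 to 0.70, both for Sesn2, or 0.58-fold to 1.63-fold, and their median half-width was 0.40. With a term for replicate 1 they reached from -0.27 for Dnajc3 to 0.43 for Dnajb11, or 0.83-fold to 1.35-fold, with a median half-width of 0.16. For Hspa5 that fit gave -0.14 to 0.16. Differences inside these intervals were not shown to be absent. The intervals are for single genes without adjustment, and with 3 arrays a genotype the adjusted threshold missed larger differences. The 12 skeletal muscle markers, higher in albino pools by a median of 1.69, gave 0 past it in the fits without a block and with either block. Their smallest limma adjusted p without a block was 0.500. A count of 0 members past that threshold thus sets no bound on the differences missed.

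**Figure D2:**
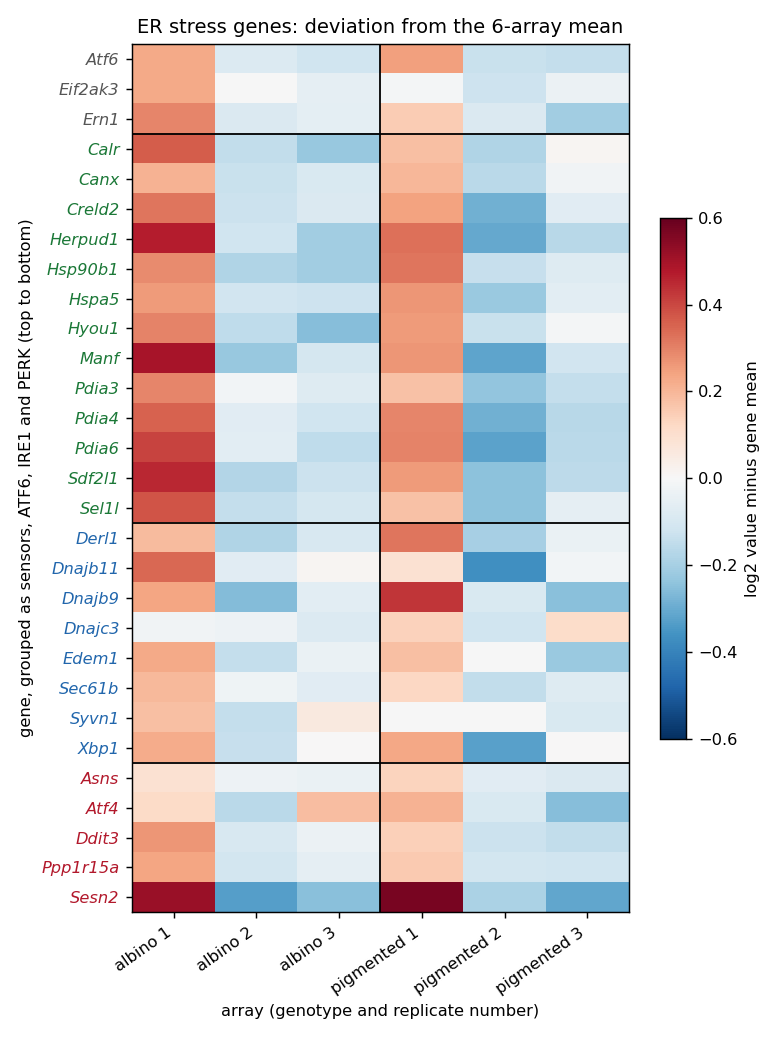
Deviation of each of the 29 genes from its own mean over the 6 arrays, on the log2 scale, with genes in rows by group and arrays in columns. The first column of each genotype, replicate 1, is red for nearly every gene, and the genotypes otherwise look alike.

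What the genes did share was a higher level on the replicate 1 arrays. The offset, replicate 1 minus the mean of replicates 2 and 3 of the same genotype, was positive in both genotypes for 29 of 29 genes. Taken as the mean of both genotypes, the offset was positive in most genes, 9530 of 12098. Its median over genes, taken as the mean of both genotypes, was 0.36 or 1.28-fold, against 0.18 over 12098 genes with 1 probe set each. Both replicate 1 arrays lay above all 4 others in 25 of the 29 genes, and below them in 0. Over all tested probe sets 43.5% lay above and 15.7% below, and with 1 probe set a gene 50.3% and 8.17%. The 4 exceptions were Eif2ak3, Dnajc3, Syvn1 and Atf4. Replicate 1 was seen to stand apart in these same data, so the offset is a description and carries no test.

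The background share grew with the level of the gene, from 46.6% at log2 values of 6 to under 8 over 56.0% at 8 to under 10 and 60.1% at 10 to under 12 to 66.1% at 12 to under 14. Scaling shifted the offset of all probe sets as well. Its median of 0.14 became 0.065 after median centring and 0.0010 after cyclic loess. The members' median was then 0.28 and 0.22, with 24 and 21 of 29 genes above the other arrays, against 32.9% and 24.9% of all probe sets. Those shares are not of 1 probe set a gene, as the members are. Before scaling the share by gene was the higher one, at 50.3% against 43.5%. The offset was positive in 29 members after median centring, in 26 after cyclic loess and in 27 with probe sets averaged.

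The offset was most even in the ATF6 group, with a median of 0.425 and 13 of 13 genes above the other arrays. Its values ran from 0.305 for Canx to 0.60 for Herpud1, with Manf, a secreted ER factor, at 0.57, Sdf2l1 at 0.53, Pdia6 at 0.53 and Hspa5 at 0.39. After cyclic loess 12 of the 13 were above, and with probe sets averaged 11. The IRE1 group had a median of 0.32 and 6 of 8 above, from Dnajc3 (0.090) and Syvn1 (0.13) to Dnajb9 (0.50). The PERK group had a median of 0.30 and 4 of 5 above, from Asns (0.17) and Atf4 (0.24) to Sesn2 (0.815), the largest of all. Of the sensors, Atf6 (0.36) and Ern1 (0.33) were above and Eif2ak3 (0.16) was not. An offset of 0.3 or more was seen in 22 of the 29 genes, against 27.3% of all genes.

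**Figure D3:**
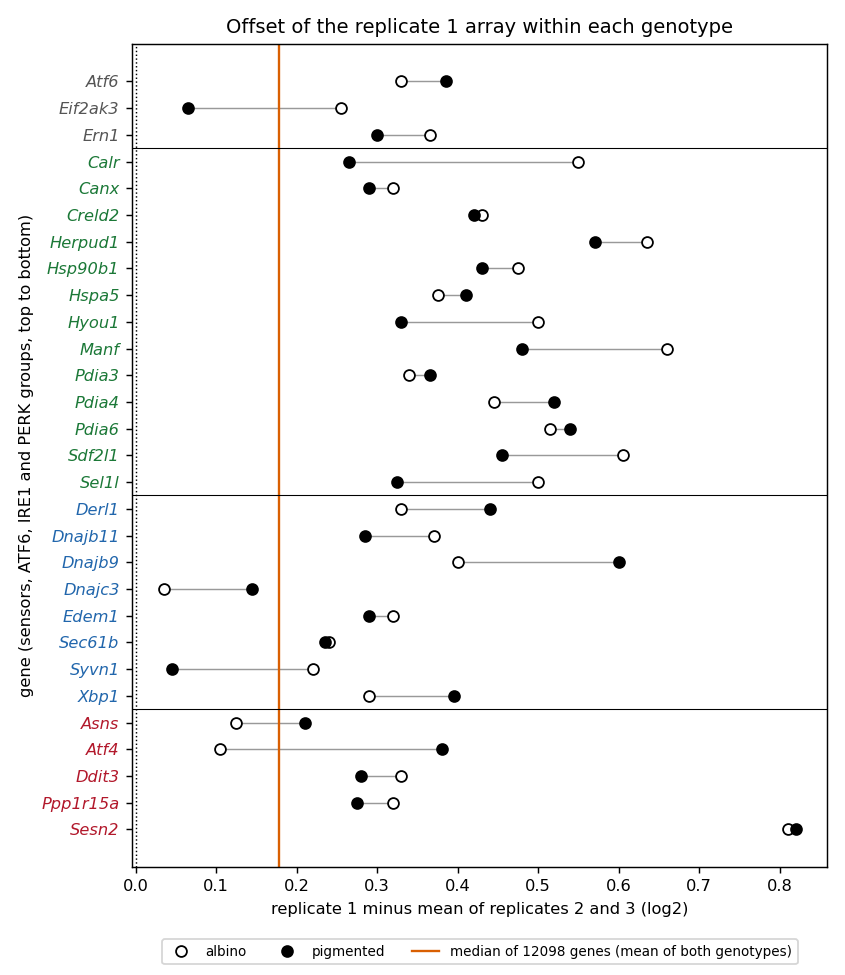
Replicate 1 minus the mean of replicates 2 and 3 for each gene, on the log2 scale, in albino (open) and pigmented pools (filled), with the median of all tested genes as an orange line. All points lie to the right of 0, and the points of the ATF6 genes lie to the right of the line in both genotypes.

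Members with an ERSE in the promoter window had a median offset of 0.40 (8 genes, 0.090 to 0.53), and those with a listed promoter without it had 0.33 (17 tested genes, 0.16 to 0.815). The ranges overlapped, and Dnajc3, with an intact element as printed above, had the lowest offset of all by its chosen probe set. Its other probe sets gave offsets from -0.62 to 0.62, so its place depends on the probe set. Median genotype differences were 0.0017 for the members with an ERSE and 0.087 for those with a listed promoter without it.

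Probe sets of 1 gene did not all follow the offset. Of the 30 other probe sets above the filter, 20 had both replicate 1 arrays above the rest and 3 had both below. The 3 belonged to Hsp90b1 (-0.81, against 0.45 for the chosen probe set), Sesn2 (-1.10, against 0.815) and Dnajc3 (-0.62, against 0.090). For these genes the direction on replicate 1 depended on the probe set, since the remaining 3 of Dnajc3 had offsets of 0.42 to 0.62. Of 13 probe sets under the filter 8 lay below, the lowest being those of Eif2ak3 (-1.34) and Ddit3 (-1.26). Where these probes lie along the transcripts was not examined here.

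**Figure D4:**
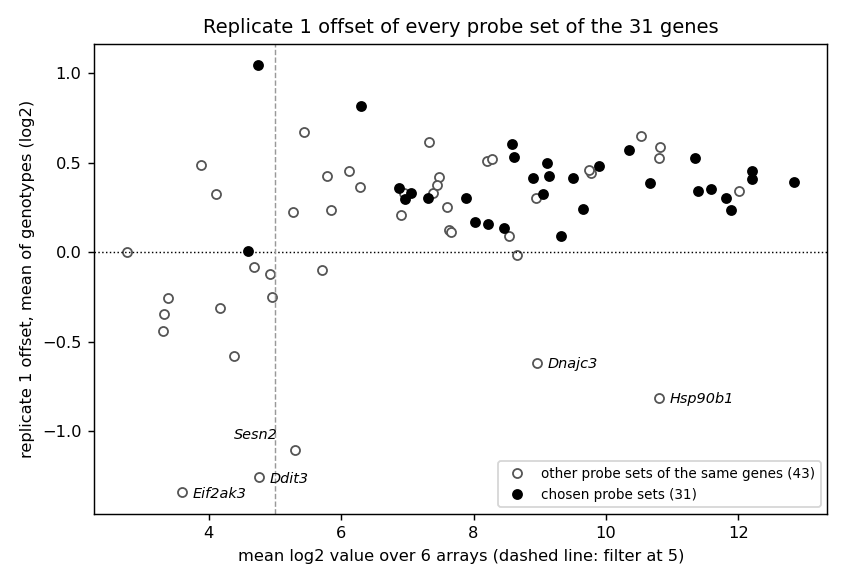
Replicate 1 offset, mean of both genotypes, against the mean log2 value for all 74 probe sets that name 1 of the 31 genes, with the chosen ones filled. Most brighter probe sets lie above 0, while single ones of Hsp90b1, Dnajc3 and Sesn2 and several dim ones lie far below 0.

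Control transcripts also set replicate 1 apart. The hybridization controls, bacterial and phage transcripts added to the labelled sample before the array, lay lower on replicate 1 by 2.10 in albino and 1.89 in pigmented pools. For bioB the replicate 1 arrays read 7.43 and 7.73 and the other 4 between 9.72 and 10.13. Labelling controls, which are added to the RNA before it is copied, lay higher on replicate 1 by 0.44 and 0.36, beside 0.39 and 0.36 for the mean level of the ER stress genes. The 3′ minus 5′ difference of the Actb control probe sets was 1.04 and 1.35 on replicate 1 and 0.86 to 1.01 on the others, and that of Gapdh 0.70 and 0.86 against 0.50 to 0.68. Neural retina markers lay lower on replicate 1 by 0.62 in albino and 0.52 in pigmented pools, with 0 of 5 having a positive offset. The part of these in the offset was not tested, and a batch of arrays, of labelling or of dissection cannot be told apart here.

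**Figure D5:**
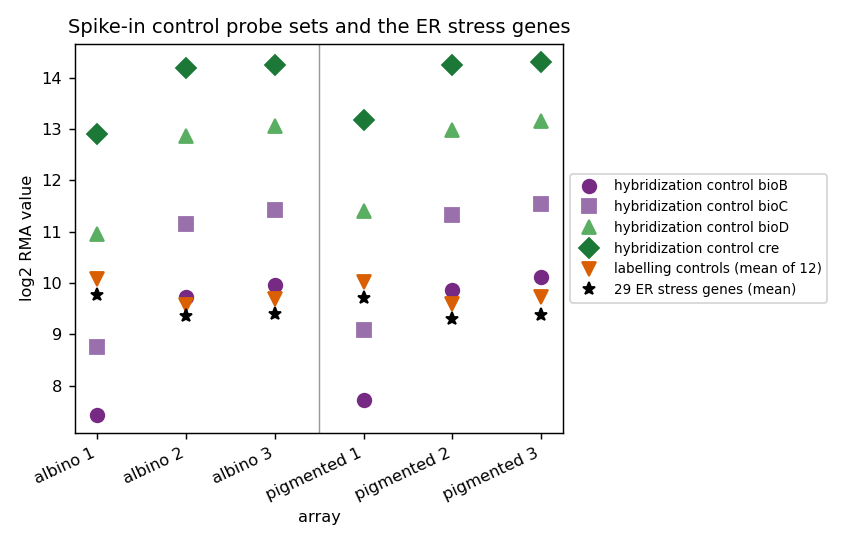
Log2 values of the hybridization controls, of the labelling controls (mean of 12 probe sets) and of the 29 ER stress genes (mean) on each array. The hybridization controls lie lower on both replicate 1 arrays than on the other 4, while the labelling controls and the ER stress genes lie higher there.

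Other genes of ER protein handling and the integrated stress response were read from 6 further lists with 84 tested genes. In limma 0 of the 84 passed the adjusted threshold in either direction and 1 had an unadjusted p under 0.05, against 4.68% of all probe sets. By sign 63 were higher, 19 lower and 2 equal in albino pools, with a median difference of 0.065, where 63.5% of all probe sets were higher. The genotypes did not overlap, with albino higher, in 7 of the 84, against 7.39% of all probe sets. Albino was lower without overlap in 1 of the 84, against 3.44% of all probe sets. The ER folding list had 16 of 17 members higher and 1, Ero1a, equal (median 0.097), with the smallest p on that side for Erp29, an ER protein of the disulfide isomerase family. Erp29 read 9.53, 9.46 and 9.40 in the albino group, against 9.35, 9.20 and 9.26 in the pigmented group. Those ranges did not overlap, and the difference was 0.19 (SE 0.091, limma adjusted p = 0.999). Of degradation genes 13 of 15 were higher, with the smallest p for Edem2, a lectin-like degradation factor (0.19, SE 0.089), and of translocation genes 10 of 13, with the smallest p for the translocon-associated Ssr4 (0.16, SE 0.092). Directions of such small differences move with single arrays and scaling, as they did for the members.

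Nupr1, a small stress-induced nuclear protein gene, was the gene with an unadjusted p under 0.05. It read 7.12, 7.19 and 6.66 in the albino group, against 6.40, 6.08 and 6.44 in the pigmented group, without overlap, and differed by 0.68 (SE 0.18, limma adjusted p = 0.763). ATF4's metabolic targets, which hold amino acid synthesis, transport and tRNA ligase genes, were split 12 higher and 10 lower, with a median of 0.012. The smallest p belonged to the lipoprotein receptor gene Vldlr on the higher side (0.30, SE 0.13) and to the arginine transporter gene Slc7a1 on the lower side (-0.15, SE 0.12). The largest difference of the list, picked out after its values were seen, was that of the cystine transporter gene Slc7a11. It read 5.88, 7.01 and 6.75 in the albino group, against 6.24, 7.46 and 7.28 in the pigmented group, lower in 3 of 3 pairs with overlapping ranges. The difference was -0.45 (SE 0.41, limma adjusted p = 0.999), with an adjusted p of 0.192 under the replicate block and 0.11 with the term for replicate 1. The eIF2alpha kinase and phosphatase list had 4 of 5 higher with a median of 0.0067. On the lower side the smallest p in each list belonged to Derl3 (-0.18), Ssr3 (-0.12), Nfe2l2 (-0.23) and Ppp1cc (-0.023), and Eif2ak1 had it on the higher side of its list (0.14).

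On the replicate 1 arrays these lists behaved unevenly. Of the 84 genes 54 (64.3%) lay above and 6 below the other arrays, where all genes gave 50.3% and 8.17%, and their median offset was 0.22. Stress transcription factors such as Atf3 (0.555), Atf5 (0.495), Cebpb (0.40) and the ER-bound Creb3l1 (0.77) had 10 of 12 above and a median of 0.39. ATF4's metabolic targets had 12 of 22 (54.5%) above and a median of 0.17, both near the values of all genes. ER folding genes had 13 of 17 (76.5%) above and a median of 0.24, and translocation genes 10 of 13 (76.9%) and 0.26. The degradation list had 8 of 15 above and a median of 0.098, with Derl3, a derlin gene, at 1.26. In the eIF2alpha kinase and phosphatase list 1 of 5 lay above, with a median of 0.11. Offsets as far to the other side were those of Eif2ak2, the kinase PKR (-1.27), of the ER cochaperone gene Dnajc1 (-1.10) and of Slc7a11 (-1.07).

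Heat shock genes, which answer to protein damage outside the ER, gave 9 of 11 above the other arrays on replicate 1, against 50.3% of all genes, with a median offset of 0.37 against 0.18. The list holds 2 genes of mitochondrial chaperones, Hspd1 and Hspe1, and without them 7 of 9 genes of the cytosol lay above, with a median of 0.37. Hspa1b, an inducible HSP70 gene, read 9.06, 8.10 and 7.78 in the albino group, against 8.86, 8.23 and 8.30 in the pigmented group, so that replicate 1 was highest in both genotypes (offset 0.86). Hspa4 was the one furthest below, at -0.22. Between genotypes the list had 6 higher and 5 lower, a median of 0.027 (-0.0033 without the mitochondrial genes) and 0 of 11 past the limma threshold, with 0 at an unadjusted p under 0.05. Hspb1 (0.31, SE 0.20) and Hspa8 (-0.15, SE 0.18) had the smallest p on either side.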

How the data were processed

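Each of the 6 pools gave 100 ng of RNA, which was labelled with a 3′-primed kit and read on an Affymetrix array. The deposited log2 values were made by the authors with Affymetrix Expression Console 1.1 and RMA, per the submitters' processing notes. RMA corrects background, makes array distributions alike and summarises probes, so a change shared by all transcripts is removed. The number of arrays limits the precision.

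Gene names come from the platform's annotation (34958 probe sets name 1 gene, 932 several, 9160 none). Control probe sets (64) and those with a mean under 5 were left out. The comparison of albino minus pigmented used limma 3.58.1 under R 4.3.3 (two-sided, Benjamini-Hochberg over 23591 probe sets, threshold 0.05), without a block. The code was tested on simulated data. Errors are SD over 3 arrays or the limma SE.

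The labels give both genotypes the same replicate numbers without saying what they share. Deviations from the genotype means correlated at 0.863, 0.687 and 0.448 between arrays numbered 1, 2 and 3. Arrays of equal number are set side by side as pairs, which for replicates 2 and 3 follows the numbers alone. Among replicates 2 and 3 the crossed pairs correlated no less (albino 2 with pigmented 3 at 0.693, albino 3 with pigmented 2 at 0.546), so the data set apart replicate 1 rather than each number. The block is an alternative only.

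Members, groups and lists were chosen with earlier results of these data known. Of 105 entries in 7 pathway lists 95 were named in the annotation. All members are given; per-array values go to the sensors, Hspa5, Xbp1, Dnajb9, Herpud1, Atf4, Ddit3, the 2 largest differences of each group, the 2 highest and 2 lowest offsets and, as additions made after their values were seen, Chac1 and Trib3. From each pathway list the smallest p in each direction is named (and the extreme offsets of heat shock genes). Other named pathway genes were chosen after their values were seen. Promoters and coordinates come from RefSeq, build GRCm38.p6; 4 members have no listed promoter.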

Additional observations from a re-analysis of the deposited data

How the results depend on the processing

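The counts of 0 genes and 0 probe sets past the adjusted threshold held under all alternatives run, which were the replicate block, a block for replicate 1, median centring, cyclic loess, no level filter, a filter at 6, averaged probe sets, no cross-hybridizing (x or s) probe sets, array weights, the Y-linked covariate, each array left out and both replicate 1 arrays left out. With the replicate block the smallest adjusted p was 0.192 over all probe sets and 0.278 among the members, and with the block for replicate 1 they were 0.0723 and 0.232. The replicate block changed no call. The count at an unadjusted p under 0.05 went from 1104 without a block to 4243 with the replicate block and 4952 with the block for replicate 1, but from 0 to only 1 among the members in each. It was 3510 with array weights, 3052 without both replicate 1 arrays, 687 with the Y-linked covariate, 639 with averaged probe sets (fewer tests), 610 without albino replicate 2 and 567 without pigmented replicate 2. Of 195 differences of the 15 tested genes with per-array values, under the 13 alternatives that can move them, 154 kept their sign (blocks and level filters leave a difference as it is). After median centring the sign turned for Hspa5 (-0.060), Xbp1 (-0.013), Atf6 (-0.057) and Syvn1 (-0.010), and after cyclic loess for Atf6 (-0.047). Medians after centring were 0.023 for the sensors, -0.028 for the IRE1 group and -0.023 for the PERK group, and after cyclic loess 0.032, -0.0042 and -0.014. With probe sets averaged the sign turned for Hspa5 (-0.13), Atf4 (-0.12), Ern1 (-0.035) and Dnajc3 (0.097), the PERK median turned to -0.0050, and the IRE1 median was 0.080, or 0.073 without the x and s probe sets. Dnajb9 turned with array weights (0.020) and without both replicate 1 arrays (0.010), where the IRE1 median was 0.015. With the Y-linked covariate the sign turned for Hspa5 (-0.17), Ddit3 (-0.0074), Atf4 (-0.017), Xbp1 (-0.18), Herpud1 (-0.13), Pdia3 (-0.010), Pdia6 (-0.099), Atf6 (-0.11) and Dnajb11 (-0.013).

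Group means in place of medians, or moving genes with input from several branches, kept every group's value positive. Leaving out each array in turn gave ranges of -0.025 to 0.15 for the median of the sensors, -0.11 to 0.21 for the ATF6 group, -0.057 to 0.135 for the IRE1 group and -0.025 to 0.18 for the PERK group. The same gave -0.11 to 0.15 for Hspa5, -0.023 to 0.18 for Ddit3, -0.010 to 0.22 for Atf4, -0.088 to 0.19 for Xbp1, -0.20 to 0.14 for Dnajb9, -0.115 to 0.29 for Herpud1, -0.045 to 0.31 for Pdia6, -0.093 to 0.145 for Atf6, -0.025 to 0.20 for Ern1, -0.010 to 0.15 for Syvn1, -0.31 to 0.23 for Sesn2, 0.023 to 0.26 for Pdia3, 0.058 to 0.29 for Dnajb11, 0.028 to 0.17 for Eif2ak3 and -0.17 to -0.038 for Dnajc3. The low ends of the 4 groups came without albino replicate 1, and the high ends without pigmented replicate 1, except for the sensors, whose high end came without albino replicate 3. Those replicate 1 arrays are the ones on which the members stood highest. With both of them left out the medians of the sensors, ATF6, IRE1 and PERK groups were 0.050, 0.050, 0.015 and 0.045. The cause of the turns was not tested. Dim members limit what can be read, since Chac1 and Trib3 lie under the level filter.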
